A study of Arabidopsis thaliana with 26 samples.

Results

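A total of 30 probe sets, for 29 genes, had their highest mean signal in developing Arabidopsis leaves at 4 h. They were chosen on y = log2(intensity + 4), the scale used for all levels and differences given here. A member had to name 1 gene in the platform annotation, to have a mean y of at least 6 over the 26 arrays, and to have a mean y at 4 h at least 0.35 above the mean of each of the other 5 times in developing leaves. There were 22746 probe sets other than the control probe sets, of which 13513 named 1 gene and 4989 of those reached the minimum mean. GI, AT1G56300, COR15A, COR15B and PORB were left out by name. Of these, COR15A, COR15B and PORB met every other criterion, with margins over the next highest time of 0.86, 1.20 and 0.61. GI and AT1G56300 had margins of 1.45 and 0.71 but means of 5.73 and 5.72.

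The arrays were Affymetrix ATH1 arrays of the accession Col-0, all under ambient CO2 and ambient light with 10 h of lighting in a growth room. Developing leaves, from leaf insertions 19-21, gave 4 arrays for each of the times 2, 4, 12, 24, 48 and 96 h. Mature leaves of plants treated for 24 h gave 2 arrays. No group differs in genotype or in the CO2 and light named above, and the groups differ in hours and in leaf stage. The labels do not say whether replicates came from separate plants, so p-values reflect only how these samples scatter, which may be technical, and the hour of the day at which the count of hours began is not given in the sources used here. If it was the same for all, 24, 48 and 96 h fall at 1 hour of the day and 2, 4 and 12 h at others. Hour of the day and elapsed time then cannot be told apart in differences between these sets of times. Median intensities per array were 40.7 to 47.0, and precision is limited by the number of arrays. Each array's mean correlation with the rest of its group, taken across probe sets that are no replicates, was 0.958 to 0.982. Replicate 1 of developing leaves at 24 h stood lowest, the next lowest array being at 0.968, and counts of members that use the 24 h arrays are given with and without it. Differences of single genes are given with it, and calls lost without it are named. The leaf mesophyll markers RCA, LHCB4.1, PSAN and SBPASE, 4 of the 7 listed, had group means of 10.37 to 12.47. Of 4 guard cell markers the annotation paired FAMA with a probe set, with group means of 5.67 to 6.03, and no listed marker of root, flower, pollen, seed, trichome, phloem or senescence was paired with a probe set in the annotation.

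A young leaf grows first by cell division and later by cell expansion, and a mature leaf holds few dividing cells. Transcripts of many proteins of mitosis and cytokinesis accumulate mainly in dividing cells around the G2 and M phases. In developing green tissue, cells also build chloroplasts, which requires chlorophyll, and magnesium chelatase carries out the first step committed to chlorophyll rather than to haem.

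Among the members, 8 had a gene symbol beyond the locus. TOPII codes for DNA topoisomerase II, which untangles DNA strands before chromosomes separate. 3xHMG-box2 codes for a DNA-binding protein of the HMG-box type that associates with condensed chromosomes in mitosis. BUB3.1 codes for a spindle checkpoint protein, and FU for FUSED, a protein kinase of the phragmoplast that builds the new cell wall in cytokinesis. CHLI2 codes for a subunit of magnesium chelatase. BGLU44 and BGLU25 belong to the beta-glucosidase family. Fes1B is named after yeast Fes1, a nucleotide exchange factor of the chaperone HSP70. The other 22 probe sets stand for 21 loci that the annotation names by locus alone. AT2G30600 has 2 probe sets, 267524_at and 267523_at, which are not independent measurements of different genes. All 29 genes are protein coding. They lie on all 5 chromosomes, with 5, 3, 9, 6 and 6 genes on chromosomes 1 to 5, and the closest pair, AT3G17680 and BGLU44, is 41 places apart in the order of protein-coding genes.

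The 4 h values that follow chose the members, so they are a description with no test. The margin over the next highest time ran from 0.35 to 0.74 with a median of 0.48. Over the 30 members the median difference of the 4 h mean was 0.50 over 2 h, 0.66 over 12 h, 1.22 over 24 h, 1.3 over 48 h and 1.54 over 96 h, or 1.42-fold to 2.9-fold. The median rise from 2 h to 4 h was thus smaller than the median fall to any later time, over intervals of unlike length. In some members the fall to 12 h was the smaller, as in Fes1B, whose 4 h mean was 1.05 over 2 h and 0.40 over 12 h. The next highest time was 2 h for 22 members, 12 h for 7 and 24 h for AT4G03100, and the lowest was 96 h for 22, 24 h for 4 and 48 h for 4. From the 4 h mean to the lowest mean the span ran from 0.75 in AT2G25870 to 2.92 in AT2G30600 (267523_at), with a median of 1.54. Arrays of the same group lay close together in most members. The median standard deviation (SD) over members was 0.14 at 4 h and 0.17 to 0.24 at the other times. In 20 of the 30 members all 4 arrays at 4 h lay above the 20 other developing arrays, against 1.08% of all probe sets tested, a share that the choice of members itself raises. BGLU25 was the exception in spread, its SD at 4 h of 0.50 being larger than its margin of 0.37.

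**Figure D1:**
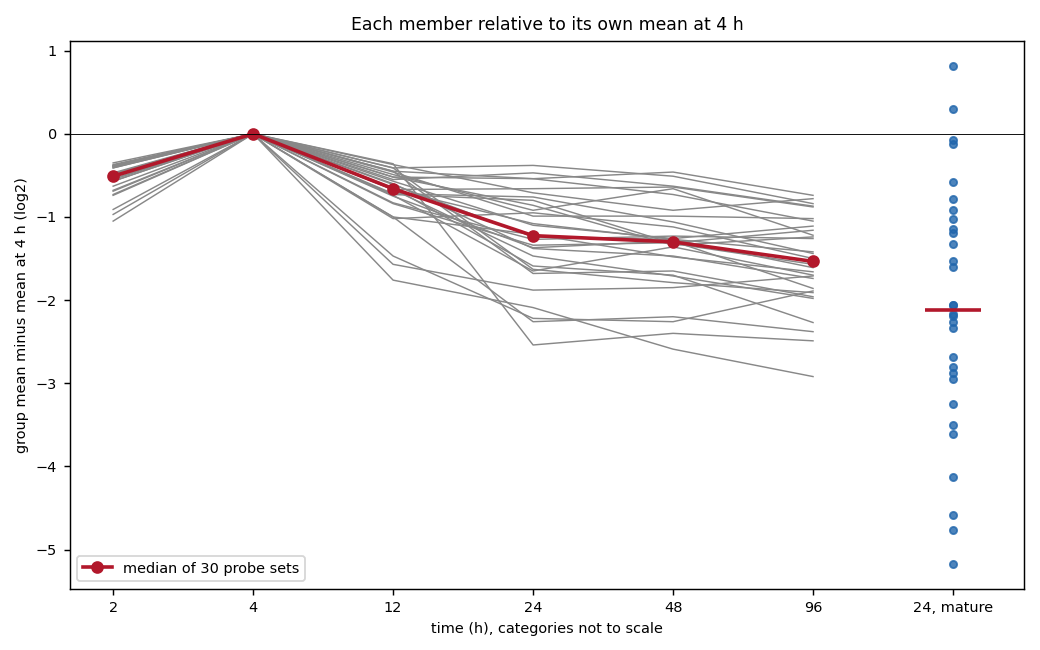
Mean log2 value of each of the 30 probe sets in each group minus its own mean at 4 h, with developing leaves as grey lines in order of time (categories not to scale) and mature leaves as blue points; the red line and bar are the medians. All lines fall from 4 h to both neighbouring times, as the rule requires, while the mature points spread from far below to above the 4 h level.

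The margin of 0.35 is not a natural border. The members just inside it were BUB3.1 at 0.351, AT4G30660 at 0.364 and BGLU25 at 0.370, and those just outside were AT1G54310 at 0.340, AT3G63510 at 0.334 and AT5G04170 at 0.333. With a margin of 0.5, 13 members remained. The same rule, with the same names left out, found fewer probe sets peaking at 2 h (3), 24 h (1) and 48 h (6) and more at 12 h (349) and 96 h (85). With any annotation and no name left out, 62 probe sets met the margin and the minimum mean at 4 h.

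The proteins of chromosome condensation, the spindle checkpoint and cytokinesis come first. TOPII had log2 values of 7.83, 7.49, 7.83 and 8.08 on the 4 arrays at 4 h, against 6.75, 7.29, 6.84 and 7.39 at 2 h and 7.03, 6.71, 7.03 and 7.47 at 12 h. Its values then went to 6.10, 6.79, 6.58 and 6.30 at 24 h, 6.11, 6.52, 6.62 and 6.84 at 48 h and 5.91, 5.77, 6.15 and 5.96 at 96 h, and to 2.59 and 2.68 in mature leaves. The 4 h arrays lay above all others, but the lowest of them, 7.49, exceeded the highest 12 h array, 7.47, by less than the SD of either group. Both mature arrays lay far below every developing array, at intensities of 2.00 and 2.43 that are close to the bottom of the scale. There the added 4 sets the size of a fold, so a log2 difference that uses these arrays is smaller than that of the intensities themselves. How well such low intensities measure the transcript is not known without detection calls. 3xHMG-box2 was at 9.41, 9.05, 8.96 and 9.37 at 4 h, with 8.48, 8.55, 8.36 and 8.68 at 2 h and 8.49, 8.23, 8.66 and 8.75 at 12 h. Later log2 values of 3xHMG-box2 were 7.37, 7.82, 7.80 and 7.94 at 24 h, 7.41, 7.27, 7.57 and 7.68 at 48 h, 7.07, 6.81, 7.65 and 7.34 at 96 h and 4.43 and 4.45 in mature leaves. As for TOPII, its 4 h arrays overlapped with no other group, and its mature arrays lay below all developing ones.

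BUB3.1 was at 7.64, 7.46, 7.69 and 7.75 at 4 h and 7.04, 7.41, 7.26 and 7.42 at 2 h, and dropped to 6.52, 6.35, 6.79 and 6.79 at 12 h. Its log2 values were 6.66, 6.64, 6.80 and 6.61 at 24 h, 6.45, 6.24, 6.64 and 6.70 at 48 h, 6.09, 5.94, 6.22 and 6.26 at 96 h and 5.75 and 5.39 in mature leaves. BUB3.1 was already low at 12 h, with means of 7.28 at 2 h and 6.61 at 12 h, whereas TOPII had 7.07 and 7.06 and 3xHMG-box2 8.52 and 8.53. FU, the cytokinesis kinase, was at 6.87, 7.10, 7.14 and 7.23 at 4 h, 6.41, 6.46, 6.73 and 6.61 at 2 h and 6.29, 6.39, 6.80 and 6.80 at 12 h. It was at 5.75, 6.22, 6.45 and 6.50 at 24 h, 5.61, 5.86, 5.84 and 5.70 at 48 h, 5.82, 5.40, 5.89 and 6.31 at 96 h and 4.33 and 4.1 in mature leaves. Each 4 h array of FU exceeded the highest array of the other times, but its lowest 4 h array, 6.87, did so by less than the SD of any group.

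CHLI2, the magnesium chelatase subunit, had the flattest course of the symbol-bearing members in developing leaves outside 4 h. It was at 8.49, 8.31, 8.67 and 8.40 at 4 h, 7.76, 8.20, 7.87 and 8.16 at 2 h and 7.90, 7.65, 7.78 and 7.85 at 12 h. From 24 h its log2 values were 7.89, 7.82, 7.68 and 7.84, then 7.88, 7.74, 7.79 and 7.92 at 48 h and 7.72, 7.32, 7.77 and 7.54 at 96 h, and mature leaves had 6.92 and 6.96. The means at 12, 24 and 48 h were 7.80, 7.81 and 7.83, which do not differ beyond their SDs of 0.08 to 0.11. Fes1B was high at both 4 h and 12 h. It was at 6.66, 6.31, 6.46 and 6.21 at 2 h, 7.28, 7.11, 7.66 and 7.78 at 4 h and 6.85, 6.99, 7.23 and 7.14 at 12 h. Fes1B then stood at 6.0, 5.79, 5.79 and 5.73 at 24 h, 5.90, 6.12, 5.22 and 5.43 at 48 h and 5.56, 5.49, 5.43 and 5.72 at 96 h, and at 6.73 and 6.63 in mature leaves. On 2 of the 12 h arrays Fes1B exceeded the lowest 4 h array. BGLU44 and BGLU25, the beta-glucosidases, had 4 h means of 10.22 ± 0.13 (SD, n = 4) and 7.51 ± 0.50. For BGLU44 no other developing array reached the 4 h range, whereas for BGLU25 8 of the 20 others lay above its lowest 4 h array.

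**Figure D2:**
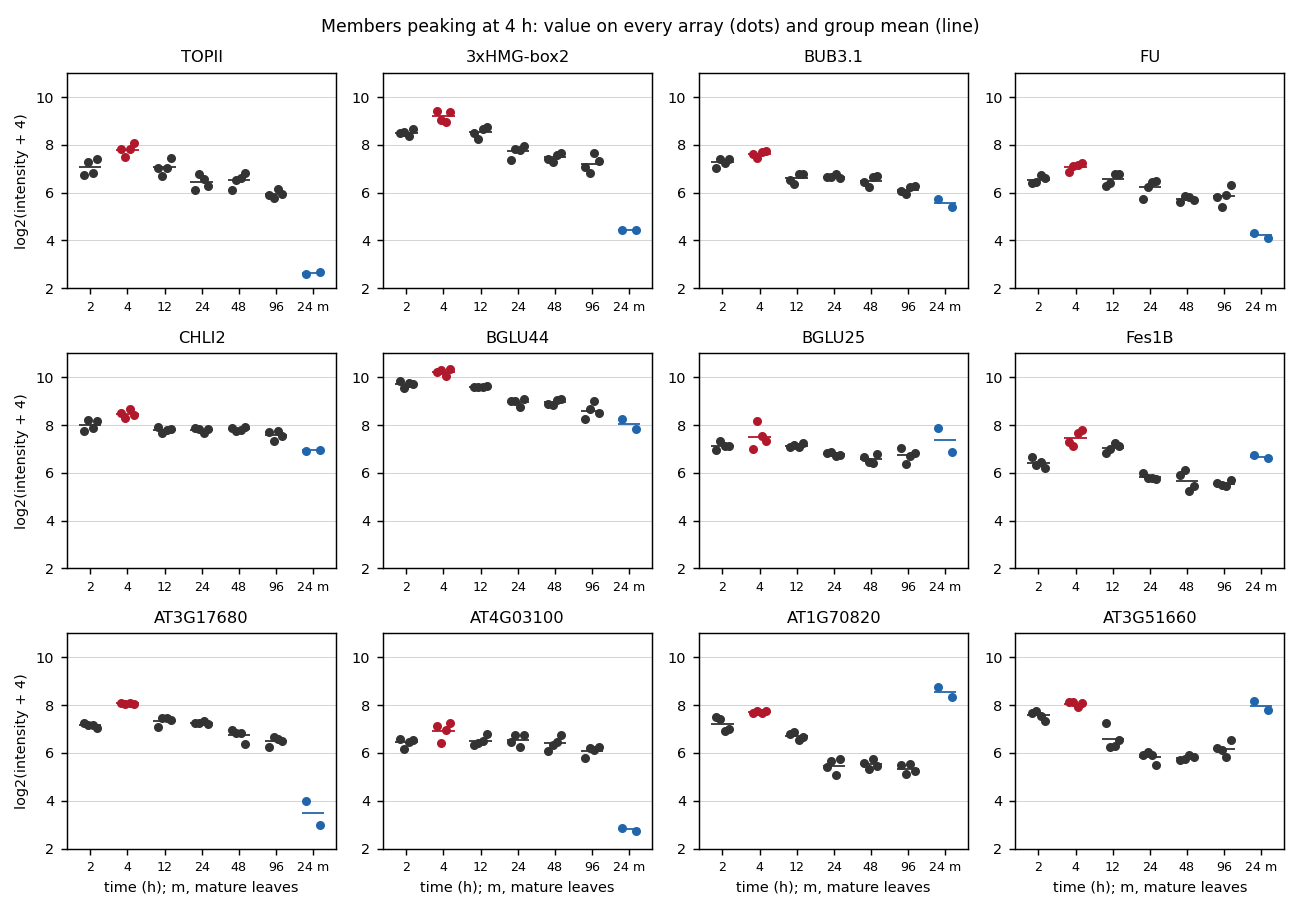
Value on each of the 26 arrays, as log2(intensity + 4), for the 8 members with a gene symbol and 4 members known by locus, with dots for arrays, lines for group means, red for 4 h, black for the other times and blue for mature leaves. TOPII, 3xHMG-box2, AT3G17680 and AT4G03100 lie far lower in mature leaves, while AT1G70820 and AT3G51660 lie close to or above their 4 h level there.

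The remaining members are known by locus alone, and no role is given for them. The 4 h arrays of AT3G17680 were the closest together of any member, at 8.10, 8.04, 8.09 and 8.05, against 7.24, 7.18, 7.17 and 7.03 at 2 h and 7.09, 7.45, 7.47 and 7.37 at 12 h. It was at 7.26, 7.26, 7.34 and 7.21 at 24 h, 6.94, 6.83, 6.82 and 6.39 at 48 h, 6.25, 6.66, 6.59 and 6.51 at 96 h and 3.97 and 3.00 in mature leaves. The 4 h SD of 0.03 stands against a margin of 0.73, and the mature arrays were again the lowest. AT4G26370 was at 8.11, 8.10, 8.28 and 8.07 at 4 h, 7.61, 7.62, 7.60 and 7.47 at 2 h and 7.50, 7.37, 7.77 and 7.53 at 12 h. AT4G26370 continued at 6.19, 6.72, 7.05 and 7.07 at 24 h, 6.30, 6.73, 6.76 and 6.87 at 48 h and 6.26, 6.42, 6.58 and 6.34 at 96 h, with 5.59 and 4.78 in mature leaves. Its 4 h arrays overlapped with no other, and both mature arrays were the lowest.

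AT1G49650 was at 7.90, 7.97, 7.99 and 8.11 at 4 h, 7.39, 7.68, 7.37 and 7.44 at 2 h and 7.40, 7.19, 7.40 and 7.37 at 12 h. Thereafter it was at 5.66, 6.65, 6.63 and 6.66 at 24 h, 6.21, 6.05, 6.47 and 6.43 at 48 h, 5.46, 5.93, 5.76 and 5.72 at 96 h and 4.95 and 4.52 in mature leaves. One 24 h array, replicate 1, lay far under the other 3. AT4G12750 was at 7.19, 7.12, 7.22 and 7.32 at 4 h, 6.50, 6.69, 6.60 and 6.78 at 2 h and 6.16, 6.14, 6.34 and 6.19 at 12 h. It declined through 5.80, 5.95, 6.02 and 6.25 at 24 h, 5.75, 5.54, 5.62 and 6.01 at 48 h and 5.68, 5.51, 5.40 and 5.59 at 96 h, and its mature values of 5.50 and 5.72 lay within the range of its 48 h and 96 h arrays. Unlike those of TOPII or AT3G17680, its mature arrays did not lie below the developing ones. AT5G62720 was at 7.81, 7.84, 7.94 and 7.93 at 4 h, 7.34, 7.32, 7.20 and 7.12 at 2 h and 7.10, 7.20, 7.17 and 6.74 at 12 h. Its later log2 values were 6.45, 6.56, 6.66 and 6.79 at 24 h, 6.63, 6.59, 6.83 and 6.57 at 48 h, 6.44, 6.64, 6.72 and 6.69 at 96 h and 6.75 and 6.64 in mature leaves. From 24 h onward the means of AT5G62720, mature leaves included, lay between 6.61 and 6.69, within the SDs.

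AT4G03100 and AT2G07170 had shallow peaks and very low mature values. AT4G03100 was at 7.12, 6.40, 6.94 and 7.26 at 4 h, 6.57, 6.17, 6.47 and 6.55 at 2 h and 6.34, 6.43, 6.50 and 6.81 at 12 h. It was at 6.47, 6.76, 6.24 and 6.75 at 24 h, 6.10, 6.33, 6.47 and 6.76 at 48 h and 5.78, 6.21, 6.14 and 6.25 at 96 h, but at 2.85 and 2.75 in mature leaves. Its 4 h replicate 2 lay below 11 of the 20 other developing arrays, so the peak of AT4G03100 rests on the other 3. AT2G07170 was at 6.74, 6.69, 6.81 and 7.21 at 4 h, 6.77, 6.66, 6.07 and 6.37 at 2 h and 6.09, 5.86, 6.79 and 6.76 at 12 h. It was at 6.0, 5.30, 6.38 and 6.10 at 24 h, 6.16, 5.74, 6.42 and 6.47 at 48 h, 5.77, 5.62, 5.32 and 5.85 at 96 h and 2.68 and 3.81 in mature leaves, and 3 developing arrays exceeded its lowest 4 h array.

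AT1G70820, AT3G51660, AT1G13930 and AT2G30600 had high values in mature leaves. AT1G70820 was at 7.69, 7.76, 7.68 and 7.77 at 4 h, 7.50, 7.42, 6.93 and 7.01 at 2 h and 6.79, 6.89, 6.56 and 6.67 at 12 h. It fell to 5.42, 5.66, 5.06 and 5.74 at 24 h, 5.60, 5.33, 5.74 and 5.46 at 48 h and 5.49, 5.11, 5.55 and 5.24 at 96 h, and mature leaves stood at 8.75 and 8.34. Of the 30 members AT1G70820 alone had both mature arrays above all 24 developing arrays. AT3G51660 was at 8.12, 8.12, 7.93 and 8.08 at 4 h, 7.69, 7.76, 7.53 and 7.34 at 2 h and 7.27, 6.26, 6.29 and 6.53 at 12 h. AT3G51660 then had 5.93, 6.03, 5.91 and 5.49 at 24 h, 5.69, 5.75, 5.90 and 5.84 at 48 h, 6.19, 6.11, 5.82 and 6.54 at 96 h and 8.19 and 7.78 in mature leaves. One mature array lay above its 4 h arrays and the other below them.

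AT1G13930 was at 10.48, 10.84, 10.52 and 10.71 at 4 h, 10.15, 9.95, 9.88 and 9.83 at 2 h and 9.72, 9.90, 9.82 and 9.74 at 12 h. It was at 9.50, 9.17, 9.09 and 9.44 at 24 h, 9.33, 9.49, 9.24 and 9.26 at 48 h, 9.58, 9.51, 9.56 and 9.25 at 96 h and 10.83 and 11.06 in mature leaves. With AT1G70820 it was one of 2 members whose mature mean exceeded the 4 h mean. The probe set 267524_at of AT2G30600 was at 7.10, 7.17, 7.64 and 7.26 at 4 h, 6.67, 7.11, 6.18 and 6.27 at 2 h and 5.89, 5.76, 5.84 and 5.40 at 12 h. This probe set was at 6.12, 5.56, 4.07 and 5.88 at 24 h, 5.46, 5.61, 5.66 and 5.02 at 48 h, 5.46, 5.46, 5.64 and 5.75 at 96 h and 6.08 and 6.46 in mature leaves. One 2 h array, 7.11, passed its lowest 4 h array, and one 24 h array, 4.07, lay far below the rest. The other probe set, 267523_at, had a mean of 7.63 ± 0.18 at 4 h and 7.11 ± 0.42 at 2 h (SD, n = 4). One 2 h array of 267523_at, 7.63, exceeded its lowest 4 h array, 7.41. The rule required a 4 h peak of both probe sets, so the shared peak is no independent agreement. Their means differed in course from 24 h to 96 h. There 267523_at went from 5.54 ± 0.24 to 4.71 ± 0.19 and 267524_at from 5.41 ± 0.92 to 5.58 ± 0.14.

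The other 10 members had 4 h means between 6.78 and 9.27. AT4G30660 had the largest span among them, from 9.27 ± 0.06 at 4 h and 8.91 ± 0.24 at 12 h to 6.73 ± 0.20 at 24 h (SD, n = 4). AT1G67660 went from 7.90 ± 0.24 at 4 h to 5.94 ± 0.07 at 96 h, and AT4G14230 from 7.47 ± 0.11 to 5.77 ± 0.12. AT5G17160, AT3G13160, AT5G27930, AT5G37010 and AT3G01410 spanned 1.02 to 1.44 between their 4 h mean and their lowest developing mean, and AT5G60930 and AT2G25870 0.87 and 0.75. AT4G30660 thus stayed high through 12 h, and both AT1G67660 and AT4G14230 were lowest at 96 h.

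The rule treats the 5 times other than 4 h alike and did not set them against one another, but it held each of their means under the 4 h mean. It thereby chose probe sets that vary over time. The probe sets tested were not chosen so, and their shares are not a like background. The differences among these 5 times were tested with limma in 1 fit of all 7 groups. Benjamini-Hochberg adjustment ran over 13648 probe sets, with a threshold of 0.05. All 30 members were above the fit's filter on low values. Between 2 h and 24 h, 20 of the 30 members fell and none rose. These 20 stand for 19 genes and are 66.7% of the members, against 10.8% lower and 10.1% higher of all probe sets tested, and 12.5% lower among the 9573 probe sets with a mean of at least 6. The median log2 difference was -0.63 over the members and 0 over all probe sets tested. AT1G70820 fell 3.36-fold (-1.75 ± 0.15, SE of the fit, adjusted p = 7.07e-09 in limma) and AT3G51660 3.34-fold (-1.74 ± 0.17, adjusted p = 6.67e-08). AT4G30660 fell by 1.58, AT4G14230 by 1.14, AT1G67660 by 1.13 and AT1G49650 by 1.07. Both probe sets of AT2G30600 fell, by 1.57 and 1.15, the second with an adjusted p of 0.0526 when the 2 h and 24 h arrays alone were fitted.

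Of the mitotic and cytokinesis members, 3xHMG-box2 fell by 0.79 ± 0.15 (adjusted p = 5.20e-04) between 2 h and 24 h, BUB3.1 by 0.61 ± 0.12 (adjusted p = 7.88e-04) and TOPII by 0.63 ± 0.18 (adjusted p = 0.0127). The call of TOPII was lost without 2 h replicate 2 or 4 or without 24 h replicate 1, with adjusted p up to 0.0577. FU did not pass, nor did CHLI2, AT3G17680, AT5G37010, AT5G17160, AT2G07170, AT5G60930, AT2G25870, AT4G03100 and BGLU25. Among the rest that fell, BGLU44 changed by -0.74 and Fes1B by -0.58, and AT4G26370, AT5G27930, AT3G13160, AT1G13930, AT4G12750, AT5G62720 and AT3G01410 by -0.81 to -0.61. The actin 3 prime to 5 prime ratio, a measure of RNA quality, was also lower at 24 h than at 2 h, whereas the mean GAPDH ratio was not (0.31 ± 0.13 at 2 h and 0.38 ± 0.42 at 24 h as log2, SD, n = 4), and the ubiquitin ratio ranged from 1.42 to 1.91 at 2 h and from 1.58 to 1.83 at 24 h. The actin control, as log2 of its 3 prime over its 5 prime probe set, was 2.66 ± 0.16 at 2 h, 2.68 ± 0.11 at 4 h, 2.08 ± 0.37 at 12 h, 2.14 ± 0.49 at 24 h, 2.00 ± 0.51 at 48 h, 1.52 ± 0.50 at 96 h (SD, n = 4) and 1.60 ± 0.56 in mature leaves (SD, n = 2). With that ratio as a covariate 20 members again fell from 2 h to 24 h, and without replicate 1 at 24 h 19 did. In whole leaves, fewer cells of a type and less RNA per cell cannot be told apart.

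Between 2 h and 12 h the members moved in both directions, and the share that fell was near that of all probe sets. Of the 30, 6 fell (20%, against 18.6% of all tested) and 2 rose (6.67%, against 20.6%), and the median difference was -0.14 against 0.04. The falls were those of both AT2G30600 probe sets (-1.24 and -0.84), AT3G51660 (-0.99), BUB3.1 (-0.67), AT1G70820 (-0.49) and AT4G12750 (-0.43). AT4G30660 rose by 0.61 ± 0.15 (adjusted p = 0.00156) and Fes1B by 0.64 ± 0.16 (adjusted p = 0.00210). The call of 267524_at of AT2G30600 was lost without 2 h replicate 2 (adjusted p = 0.0887) or 12 h replicate 4 (adjusted p = 0.0624). The comparison shares its 2 h arrays with the one before.

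From 12 h to 24 h, 16 members fell (53.3%, against 20.7% of all tested) and none rose (17.6% of all tested). The median difference was -0.43 over members and -0.03 over all. AT4G30660 fell 4.54-fold (-2.18 ± 0.15, adjusted p = 3.00e-12) and AT1G70820 2.39-fold (-1.26 ± 0.15, adjusted p = 1.16e-07). AT1G67660 and Fes1B both fell by 1.23. 3xHMG-box2 fell by 0.80, BGLU44 by 0.63 and TOPII by 0.62. The other falls, from 0.41 to 0.94, were those of AT1G49650, AT4G14230, AT4G26370, AT3G51660, AT3G01410, AT5G27930, AT1G13930, AT5G62720 and AT3G13160. AT3G13160 did not pass without 12 h replicate 3 or 4 or 24 h replicate 1 or 4 (adjusted p up to 0.0821). Without 24 h replicate 1, 15 members fell.

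Between 24 h and 48 h the median difference was -0.10 over the members and -0.01 over all probe sets tested. In this comparison limma called none of the members, as against 0.154% of all probe sets lower and 0.176% higher, and 6 members had an unadjusted p under 0.05, or 20% of them against 14% of all probe sets tested, of which 5 were lower and 1 higher. AT3G17680 came closest (-0.52 ± 0.14, adjusted p = 0.101), and 1 member was called with a pseudocount of 16 or with array weights. By 96 h, 10 members had fallen relative to 24 h (33.3%, against 8.84% of all tested and 11% of those with a mean of at least 6) and none had risen (8.39% of all). The median difference was -0.32 over the members and -0.03 over all. AT3G17680 fell 1.70-fold (-0.76 ± 0.14, adjusted p = 5.50e-04), AT5G17160 by 0.68, AT1G49650 by 0.68, AT5G37010 by 0.51 and AT4G12750 by 0.46. The probe set 267523_at of AT2G30600 fell by 0.83 ± 0.20, whereas 267524_at did not pass. BUB3.1 fell by 0.55 ± 0.12 (adjusted p = 0.00247), 3xHMG-box2 by 0.51 ± 0.15 (adjusted p = 0.0199) and BGLU44 by 0.37 ± 0.12 (adjusted p = 0.0290), and AT5G60930 by 0.40 ± 0.14 (adjusted p = 0.0462). The last 3 calls depended on single arrays. That of 3xHMG-box2 was lost without 24 h replicate 2, 3 or 4 or 96 h replicate 1 or 2 (adjusted p up to 0.0935), that of BGLU44 without 24 h replicate 1, 2 or 4 or 96 h replicate 1 or 4 (up to 0.150), and that of AT5G60930 without 24 h replicate 2, 3 or 4 or any of the 96 h arrays (up to 0.173). In a fit with the actin ratio as covariate 9 members fell, 5 did with the 24 h and 96 h arrays alone in the fit, and 13 without 24 h replicate 1.

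**Figure D3:**
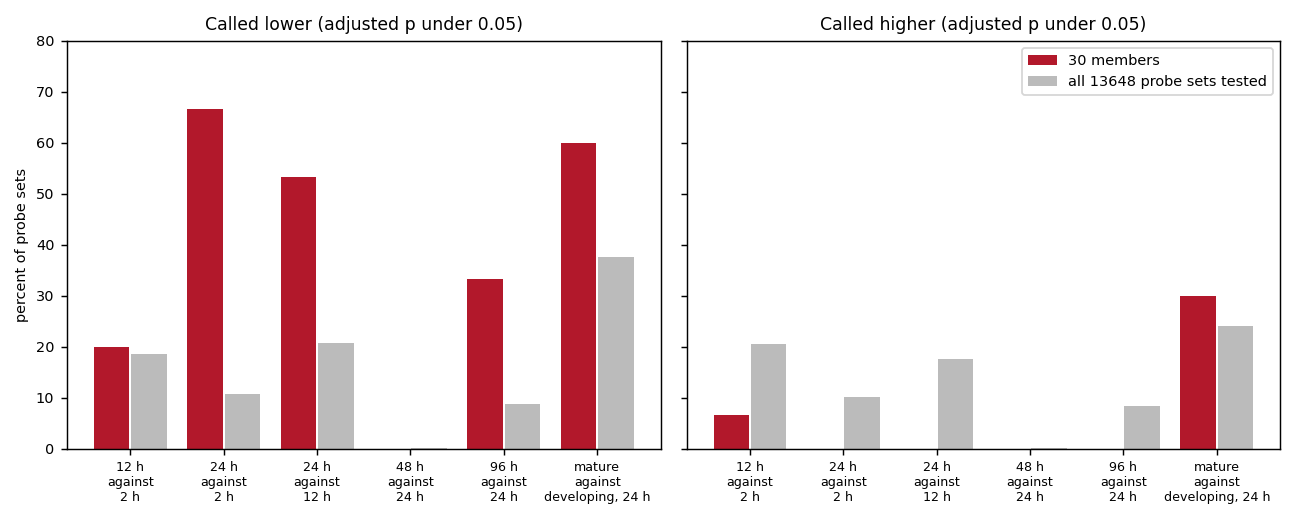
Percent of the 30 members (red) and of all 13648 probe sets tested (grey) called lower (left) and higher (right) in 6 comparisons by limma at an adjusted p under 0.05. The red bars exceed the grey ones on the left for 24 h against 2 h (66.7 against 10.8), 24 h against 12 h, 96 h against 24 h and mature leaves, and nearly equal them for 12 h against 2 h.

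The mature leaves gave the widest spread among the members. The 24 h arrays of developing leaves take part in this comparison and in those above. The rule held the developing 24 h mean under the 4 h mean, which leans a member towards a rise in mature leaves. Its minimum mean leans the other way, since most arrays were developing and a member could pass mainly on their signal. TOPII, AT4G03100 and AT2G07170 had means over all arrays of 6.49, 6.21 and 6.02, with mature means of 2.64, 2.8 and 3.25. The rule thus leans the set both ways, and the net lean was not tested. Of the 30 members 18 were lower in mature than in developing leaves at 24 h (60%, against 37.6% of all tested and 42.2% of those with a mean of at least 6). Another 9, for 8 genes, were higher (30%, against 24.1%), and the median difference was -0.91 against -0.15 over all. Both mature arrays lay below all 24 developing arrays in 16 members (25.3% of all tested) and above all of them in AT1G70820 (15.2% of all tested). The share of members lower in mature leaves thus stood above the background, and the share higher was close to it. Without 24 h replicate 1 the counts were 19 lower and 9 higher, and 17 and 8 with the actin ratio as covariate. With the arrays of these groups alone in the fit they were 17 lower and 6 higher, so the count of higher members depends on the fit.

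TOPII was 14.0-fold lower in mature leaves (-3.81 ± 0.22, adjusted p = 4.15e-14). That size depends on the added constant, being -4.71 with a pseudocount of 1 and -2.45 with 16. 3xHMG-box2 was 9.81-fold lower (-3.29 ± 0.19, adjusted p = 3.35e-14), FU 4.05-fold (-2.02 ± 0.20, adjusted p = 2.49e-09) and BUB3.1 2.15-fold (-1.10 ± 0.15, adjusted p = 3.67e-07). These 4 members with a known role in mitosis or cytokinesis were therefore all lower in mature leaves, over a wide range of size. CHLI2 was 1.82-fold lower (-0.87 ± 0.13, adjusted p = 1.68e-06) and BGLU44 1.93-fold (-0.95 ± 0.14, adjusted p = 2.26e-06). Among members known by locus alone, AT3G17680 was 13.7-fold lower (-3.78 ± 0.17), AT4G03100 13.5-fold (-3.75 ± 0.20) and AT2G07170 6.49-fold (-2.70 ± 0.30). AT3G17680 and AT4G03100 were also near the bottom of the scale there, at intensities of 11.7 and 4.0 and of 3.22 and 2.74, as were AT2G07170 at 2.41 and 10.1 and AT3G01410 at 6.53 and 7.02. The size of these differences depends on the added constant, since AT2G07170 differed by -3.25 with a pseudocount of 1 and by -1.76 with 16, and AT3G01410 by -2.90 and -1.69. AT3G01410, AT5G17160, AT5G60930, AT1G49650, AT5G37010 and AT4G26370 were lower by 2.51 to 1.57 on the log2 scale, and AT3G13160, AT1G67660 and AT4G12750 by 0.98, 0.58 and 0.40. AT1G67660 did not pass without mature replicate 2 (adjusted p = 0.108), nor AT4G12750 without mature replicate 1 (adjusted p = 0.170).

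AT1G70820 was 8.43-fold higher in mature leaves (3.08 ± 0.18, adjusted p = 7.26e-14), AT3G51660 4.43-fold (2.15 ± 0.21, adjusted p = 1.45e-09) and AT1G13930 3.12-fold (1.64 ± 0.13, adjusted p = 1.48e-11). Fes1B was 1.80-fold higher (0.85 ± 0.20, adjusted p = 4.95e-04). The other higher members were 267524_at and 267523_at of AT2G30600 (0.86 ± 0.34 and 0.76 ± 0.24), BGLU25 (0.60 ± 0.23), AT5G27930 (0.52 ± 0.16) and AT4G14230 (0.51 ± 0.13). Of these BGLU25 went to 0.10 (adjusted p = 0.777) without mature replicate 1, where AT5G27930 was at 0.35 (adjusted p = 0.156) and 267523_at at 0.71 (adjusted p = 0.0615). The call of 267524_at was lost under 6 alternatives, among them leaving out the low 24 h array, replicate 3 (0.42, adjusted p = 0.132), or mature replicate 2 (0.67, adjusted p = 0.211). BGLU44, of the same enzyme family, was lower, but the higher mean of BGLU25 rested on mature replicate 1. The mature arrays of BGLU25 were at 7.89 and 6.89, against 6.69 to 6.89 in developing leaves at 24 h. Its call was also lost without 24 h replicate 3 (adjusted p = 0.0552) and with array weights (adjusted p = 0.0787). AT5G62720 (0.08 ± 0.12), AT4G30660 (-0.14 ± 0.18) and AT2G25870 (-0.38 ± 0.21) did not pass.

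**Figure D4:**
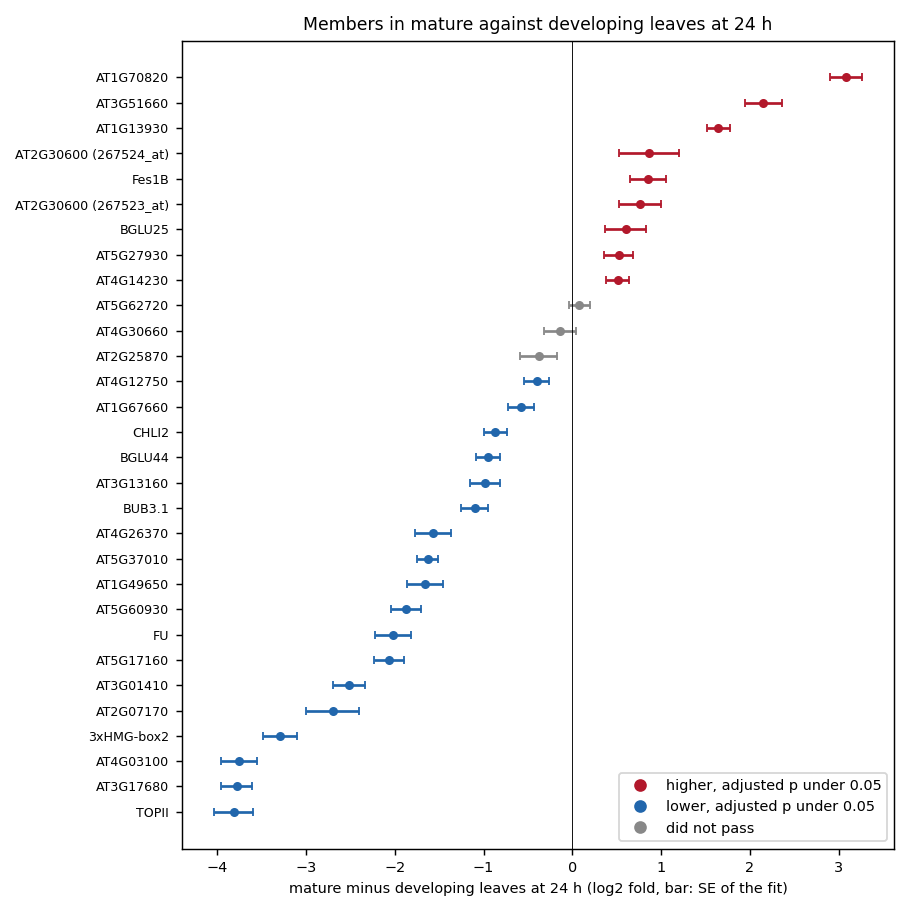
Log2 difference of mature minus developing leaves at 24 h for each of the 30 probe sets (points) with the SE of the fit (bars), red for higher and blue for lower at an adjusted p under 0.05 and grey for those that did not pass. The values run from -3.81 in TOPII to 3.08 in AT1G70820, with 18 lower, 9 higher and 3 that did not pass.

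Of 8 pathway lists, 2 held a member. Of 30 listed genes of mitosis and cytokinesis the annotation paired 8 with a probe set, among them the members TOPII, 3xHMG-box2 and BUB3.1. The other 5 were the mitotic kinases AUR1 and AUR2, the phragmoplast motor KINESIN-12B, the spindle checkpoint protein BUBR1 and 3xHMG-box1, a relative of the member 3xHMG-box2. All 5 were lower in mature leaves, against 37.6% of all tested, with a median of -1.89 against -0.15 over all. Mature means of BUBR1, KINESIN-12B, 3xHMG-box1 and AUR2 were 2.89, 3.39, 4.44 and 4.53, under the fit's filter level of 4.97. The 96 h means of KINESIN-12B and BUBR1, 4.57 and 4.62, were under it too. These genes thus passed the filter through their other arrays, which leans them towards a fall here. BUBR1 differed by -2.51 ± 0.17 (adjusted p = 9.91e-13), 3xHMG-box1 by -1.90 ± 0.19, AUR1 by -1.89 ± 0.14, AUR2 by -1.74 ± 0.20 and KINESIN-12B by -1.72. The order of these sizes depends on the added constant, since BUBR1 was at -3.18 with a pseudocount of 1 and at -1.48 with 16, and KINESIN-12B at -2.07 and -1.05. All 5 also fell from 24 h to 96 h (8.84% of all tested), with a median of -0.55 against -0.03 over all, BUBR1 by 0.78 ± 0.14 (adjusted p = 2.95e-04) and 3xHMG-box1 by 0.76 ± 0.16 (adjusted p = 0.00149), whereas the call of AUR2 in that comparison (-0.53, adjusted p = 0.0256) was lost without 24 h replicate 2 or 3 or 96 h replicate 1 or 3 (adjusted p up to 0.107) and that of KINESIN-12B (-0.55, adjusted p = 0.0180) without 24 h replicate 1 or 96 h replicate 1 (up to 0.104). From 12 h to 24 h 4 of the 5 fell (20.7% of all tested), of which AUR2 (-0.63 ± 0.16, adjusted p = 0.00303) passed without each array in turn and 3 did not. AUR1 was lost without 12 h replicate 3, 3xHMG-box1 without 12 h replicate 4 or 24 h replicate 1, and KINESIN-12B without 12 h replicate 3 or 4 or 24 h replicate 2, 3 or 4 (adjusted p up to 0.102). From 2 h to 24 h none passed, and from 2 h to 12 h AUR1 (0.47 ± 0.11) and AUR2 (0.50 ± 0.16) rose, AUR2 with a call that was lost without 12 h replicate 3 or 4 (up to 0.0612) and with the actin ratio as covariate (0.38, adjusted p = 0.0947). BUB3.1 fell over the same interval, and that difference was not itself tested.

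As a description with no test, the margins of these genes at 4 h were 0.66 in KINESIN-12B, which missed the minimum mean, 0.28 in BUBR1, 0.26 in 3xHMG-box1, 0.12 in AUR2 and -0.02 in AUR1. Of 24 listed genes of chlorophyll and haem synthesis the annotation paired 7 with a probe set, with CHLI2 as the one member. Among the other 6, the margin at 4 h was 0.61 in PORB, a protochlorophyllide oxidoreductase that the rule leaves out by name, 0.07 in HEME2 and below 0 in GSA1, HEMB1, CHLM and CHLP. In mature leaves 4 of the 6 were lower, against 37.6% of all tested and 42.2% of those with a mean of at least 6, and none was higher. The 4 were GSA1, the aminomutase that makes the precursor 5-aminolevulinate (-1.12 ± 0.12, adjusted p = 1.41e-08), the uroporphyrinogen decarboxylase HEME2 (-1.03 ± 0.09), the aminolevulinate dehydratase HEMB1 (-0.96 ± 0.09) and PORB (-0.62 ± 0.18). The call of PORB was lost without mature replicate 2 (-0.20, adjusted p = 0.401). From 24 h to 96 h HEMB1 fell (-0.27 ± 0.07, adjusted p = 0.00803, but 0.0885 with the 24 h and 96 h arrays alone in the fit) and the other 5 did not pass. From 12 h to 24 h CHLP, which reduces the geranylgeranyl side chain of chlorophyll, rose by 0.85, the methyltransferase CHLM by 0.29 and HEME2 by 0.25, and PORB fell by 1.04. From 2 h to 24 h CHLP rose by 0.50 and CHLM by 0.27, and PORB fell by 0.53. From 2 h to 12 h HEMB1 rose by 0.25 and PORB by 0.51, and CHLP fell by 0.35 and HEME2 by 0.28, and from 24 h to 48 h none of the 6 passed. With quantile normalization the calls of CHLM from 12 h to 24 h (0.13, adjusted p = 0.120), of HEME2 over that interval (0.14, adjusted p = 0.129) and of CHLM and CHLP from 2 h to 24 h (adjusted p = 0.105 and 0.298) were lost. The call of CHLM from 2 h to 24 h was also lost without 2 h replicate 2, 24 h replicate 1 or 24 h replicate 4 and with the arrays of the 2 groups alone (adjusted p up to 0.0873), as was that of HEME2 from 12 h to 24 h with those 2 groups alone (0.0520). CHLI2 was itself among those that did not pass from 24 h to 96 h.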

How the data were processed

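Total RNA of 26 leaf samples was labelled with biotin and hybridised to 1-colour ATH1 arrays. The deposited table holds a linear intensity for every probe set on every array. The authors made these values with MAS5, per the submitters' processing notes, and gave no detection calls, and the version and settings are not given in the sources used here. The values show that each array had been scaled to the same mean after the lowest and highest 2% of probe sets were trimmed. That scaling was kept. Each value was taken as log2(intensity + 4), which understates changes of low values.

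Groups follow the labels. The 64 control probe sets, and probe sets with a mean under the 40th percentile (4.97), were left out of the fit, which left 13648, of which 7446 named 1 gene in the platform annotation, 259 several and 5943 none. All 7 groups entered 1 limma fit (version 3.58.1, R 4.3.3) with an intensity trend. Because mature leaves have 2 arrays, the developing groups supply most of the spread estimate there.

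The members, lists and tests were chosen with earlier results of these data known, and the members by their 4 h values. Values on every array are given for the 10 members with the largest margin, for members of a list, and for the 5 largest mature differences in each direction. The pathway lists with a member are described, and the other 6 are not.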

Additional observations from a re-analysis of the deposited data

Results flagged for a closer look

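In 5 of the 180 groups of 4 arrays formed by the 30 members and the 6 times (2.78%), 1 array stood apart from the other 3 by Dixon's test, where chance gives about 1 in 20. AT1G49650 had 2 of the 5, with 5.66 on 24 h replicate 1 against 6.63 to 6.66 on the others, and 7.19 on 12 h replicate 2 against 7.37 to 7.40. AT2G25870 was at 5.70 on 96 h replicate 1 against 6.32 to 6.37. AT4G26370 was at 7.47 on 2 h replicate 4 against 7.60 to 7.62. AT3G13160 was at 7.71 on 4 h replicate 2 against 7.89 to 7.91. All 5 arrays were low, and the 24 h array of AT1G49650 is the one that correlated least with its group over all probe sets.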

How the results depend on the processing

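Every count of members was recomputed with other pseudocounts, filters, scaling, variance prior, array weights, covariates and sets of arrays. The set itself fell from 30 to 13 with a margin of 0.5 and to 7 with a minimum mean of 7, and held 26 to 36 probe sets without each developing array in turn, at least 21 of them members. Members called from 24 h to 48 h went from 0 to 1 with a pseudocount of 16 and to 1 with array weights, and from 24 h to 96 h from 10 to 5 with the arrays of these groups only. The other counts stayed within 1.5 times. Without each array in turn they ran from 7 to 9 for 12 h against 2 h, 19 to 21 for 24 h against 2 h, 15 to 16 for 24 h against 12 h, 0 to 0 for 48 h against 24 h, 7 to 13 for 96 h against 24 h and 23 to 28 for mature leaves. Of 81 called differences of members 66 passed under every alternative, 15 were lost under at least 1 and 0 reversed. Replicates of the same number did not deviate together in every pair (r from -0.11 to 0.36 between developing groups and -0.29 to -0.18 with mature leaves), so the number is not taken as a pairing. A same-number pair did have the highest r of any pair for 12 h against 2 h (0.30), 24 h against 2 h (0.36) and 48 h against 24 h (0.29). With the replicate number as a block the counts in the same order were 8, 21, 17, 0, 13 and 26. The number of arrays and the lack of detection calls limit what can be said of low values.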
